A study of Homo sapiens with 10 samples.

Results

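Aminoacyl-tRNA synthetases are the enzymes that attach each amino acid to its tRNA. They were read here as 34 genes with 72 probe sets, of 19775 genes and 54630 probe sets on the array. Genes were taken by symbol: an amino acid letter followed by ARS, with an ending that in most cases marks the cytosolic (1) or the mitochondrial (2) enzyme, together with FARSA and FARSB, the subunits of the cytosolic phenylalanine enzyme, the scaffold protein AIMP1 and the kinase PSTK. EPRS1, a fused enzyme for glutamate and proline, departs from that letter pattern and was included by name. The genes fell into 15 cytosolic enzymes, 15 mitochondrial enzymes, 2 enzymes that serve both compartments (GARS1 and KARS1) and 2 accessory proteins (AIMP1 and PSTK). MARS1, QARS1 and TARS2 were read only by 5 probe sets that also name a microRNA gene and are given apart, and the scaffold proteins AIMP2 and EEF1E1 were not analysed here.

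The study compared K562 cells with the microvesicles that these cells release. K562 is an established line from a patient with chronic myeloid leukaemia and has the BCR-ABL1 fusion gene, which cells and vesicles therefore share, and the labels name no treatment in either group. Microvesicles are membrane-bound particles shed from the cell surface that carry RNA of the parent cell. RNA was extracted with Trizol in 5 experiments described as independent, and 100 ng of total RNA per sample was labelled for an Affymetrix HG-U133 Plus 2.0 array, which gave 5 cell arrays and 5 microvesicle arrays. Whether a cell sample and a vesicle sample of the same number came from 1 culture is not stated, so the p-values reflect only how much these samples vary. All values are log2 signals made with RMA, and changes are microvesicles minus cells. Because equal amounts of RNA were labelled, fewer vesicles and less RNA per vesicle cannot be told apart.

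In the cytosol the synthetases supply charged tRNA to the ribosome, and several of them are held together in the multisynthetase complex by scaffold proteins such as AIMP1. Mitochondria translate their own few mRNAs with a separate set of synthetases, encoded in the nucleus, translated in the cytosol and imported. Many cytosolic synthetase genes are targets of ATF4, a transcription factor that is made when amino acids run short or the endoplasmic reticulum is stressed. It binds composite C/EBP-ATF elements in the promoters of its targets.

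Most synthetase mRNAs stood lower in microvesicles than in cells, relative to the other RNA on the same array. Of the 34 genes, 21 fell and 1 rose, with a median change of -0.51, while 31.2% of all 19775 genes fell and 35.5% rose, with a median change of 0.20 (limma, Benjamini-Hochberg adjusted p under 0.05 over all genes). In 19 of the 34 all 5 microvesicle arrays lay below all 5 cell arrays, against 26.1% of all genes. A fall of at least 2-fold past the threshold was seen in 9 of 34, against 19.8% of all genes, and a rise of that size in 0, against 11.2%. The counts depended on how arrays were scaled: after a loess normalization that removes the shift tied to signal level, 6 fell and 8 rose with a median of 0.07 (all genes: 18.3% fell, 26.9% rose), and after a repeated quantile normalization 7 fell and 7 rose with a median of 0.01 (16.5% and 26.5%). With arrays centred on their median, 25 fell and 0 rose (34.7% and 25.7%). Without EPRS1, 20 of the remaining 33 fell.

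Signal level has to be read beside these counts, because on these arrays bright probe sets mostly fell and dim ones mostly rose. Among probe sets with a mean signal above 8, 14 of the 25 synthetase probe sets fell (56.0%) and 0 rose, against 57.2% and 5.82% of all probe sets in that range. Between 5 and 8, 20 of 31 fell (64.5%) and 1 rose, against 56.5% and 15.9% of all. At 5 or below, 8 of 16 rose and 2 fell, against 47.0% and 11.2% of all. Against probe sets of like signal, the share of synthetase probe sets that fell was therefore close to the background in the bright and the dim range, and somewhat above it in the middle range, which was not tested. Read per gene, the synthetase medians lay on both sides of those of all genes of like signal. They were -0.75 against -0.07 at 5 to 6, -1.29 against -0.84 at 6 to 7 and -0.52 against -0.23 above 11. At 7 to 8 they were -0.51 against -0.98, and at 8 to 9 -0.69 against -0.81. At 9 to 10 they were -0.48 against -0.54, and at 10 to 11 0.05 against -0.44. Over all 72 probe sets, 36 fell and 9 rose, where 27.0% of all probe sets fell and 35.4% rose.

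**Figure D1:**
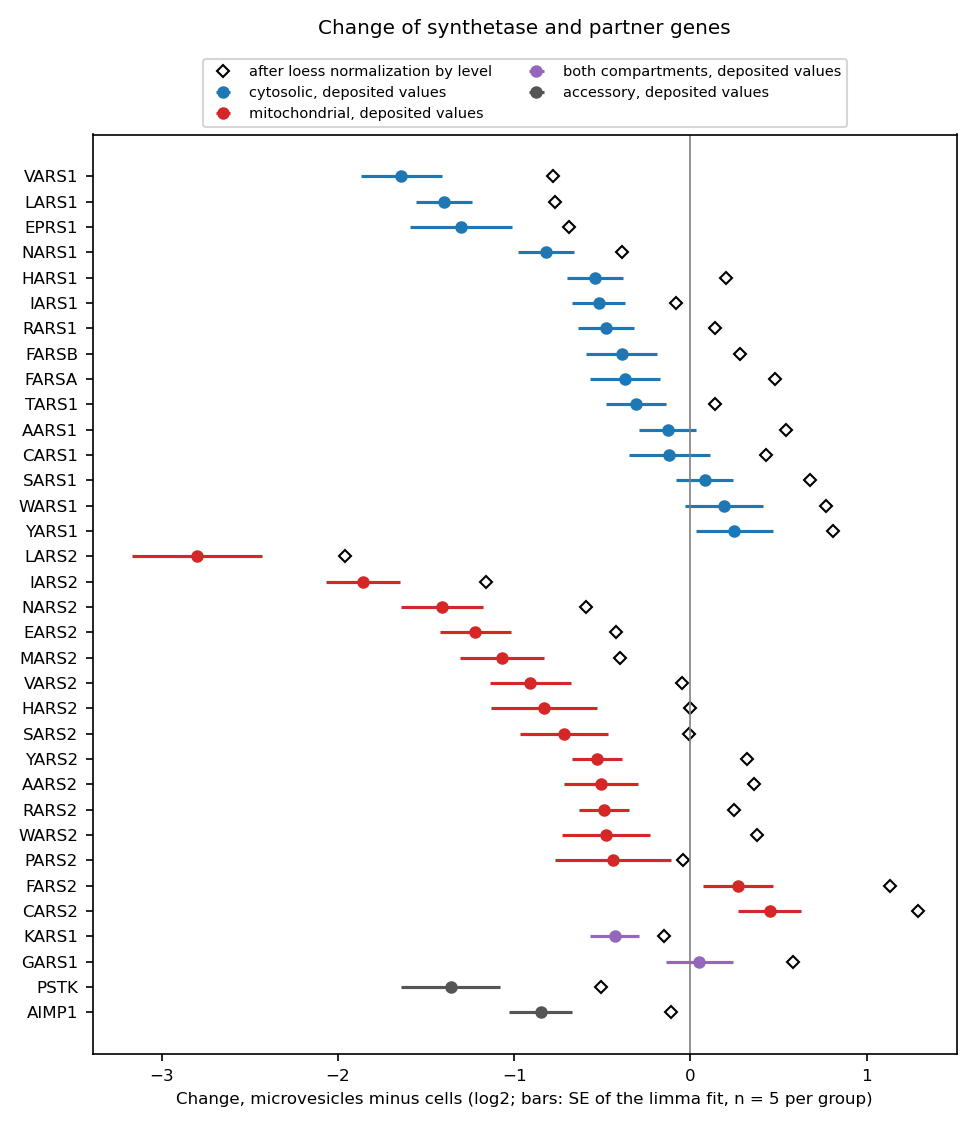
Change of each of the 34 genes (microvesicles minus cells, log2; filled points with the SE of the limma fit, 5 arrays per group) and the same change after loess normalization by signal level (open diamonds). With the deposited values 28 of 34 changes lie below 0, and after loess 17 do; LARS2, at -2.80 and -1.96, is the lowest on both scales.

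Among the cytosolic enzymes 7 of 15 fell, 0 rose and 8 did not pass (median -0.39), where 31.2% of all genes fell and 35.5% rose. VARS1, the valine enzyme, had 8.09, 7.95, 7.81, 7.95 and 7.87 in cells replicates 1 to 5 and 7.16, 6.33, 5.70, 6.31 and 5.97 in microvesicles replicates 1 to 5. All microvesicle arrays lay below all cell arrays, and the change was -1.64 ± 0.23 (SE, limma adjusted p = 6.19e-05). LARS1, the leucine enzyme, which is also a leucine sensor of the mTORC1 pathway, had 10.57, 10.61, 10.66, 10.15 and 10.34 in cells and 9.15, 9.04, 8.93, 8.98 and 9.22 in microvesicles. The groups were apart by more than their spread, with a change of -1.40 ± 0.16 (SE, limma adjusted p = 8.86e-06). EPRS1 had 10.80, 10.83, 10.88, 10.20 and 10.20 in cells and 10.05, 9.0, 9.79, 8.33 and 9.25 in microvesicles. Its groups did not overlap either, although the microvesicle arrays were spread over more than 1 log2 unit, and the change was -1.30 ± 0.29 (SE, limma adjusted p = 0.00188).

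These 3 enzymes still fell after loess, at -0.78 for VARS1, -0.77 for LARS1 and -0.69 for EPRS1. With all probe sets of a gene averaged, LARS1 and EPRS1 fell and VARS1 did not pass, at -0.35 (limma adjusted p = 0.0674). The asparagine enzyme NARS1 fell by 0.82 (limma adjusted p = 0.000814; after loess -0.39, which did not pass). The other 3 that fell were HARS1 for histidine at -0.54, IARS1 for isoleucine at -0.52 and RARS1 for arginine at -0.48. After loess none of these 3 passed, at 0.20, -0.08 and 0.14, so the direction turned for HARS1 and RARS1.

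The 8 cytosolic genes that did not pass ran from -0.39 in FARSB to 0.25 in YARS1. Those of alanine (AARS1, -0.13), cysteine (CARS1, -0.12), serine (SARS1, 0.08), tryptophan (WARS1, 0.19) and tyrosine (YARS1, 0.25) were nearest to 0. WARS1, which interferon also induces, had 10.56, 10.37, 10.29, 9.45 and 9.66 in cells and 10.30, 10.32, 10.32, 10.34 and 10.01 in microvesicles. YARS1 had 10.78, 10.36, 10.27, 9.72 and 9.78 in cells and 10.76, 10.65, 10.27, 10.06 and 10.44 in microvesicles. In both genes the microvesicle arrays lay mostly among cells replicates 1 to 3 and above cells replicates 4 and 5. After loess AARS1, FARSA, SARS1, WARS1 and YARS1 rose by 0.48 to 0.81, and the cytosolic count became 5 higher and 3 lower.

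The mitochondrial enzymes gave 11 of 15 lower, 1 higher and 3 not passed (median -0.72), where again 31.2% of all genes fell and 35.5% rose. With all probe sets of a gene averaged, 10 of 15 mitochondrial and 10 of 15 cytosolic genes fell, so the classes did not differ in that count. In that fit 13960 of all genes passed in either direction, against 13179 in the main fit. How many of the 13960 fell is not given here. LARS2, the mitochondrial leucine enzyme, had 8.18, 8.20, 8.12, 8.16 and 8.05 in cells and 6.17, 5.32, 5.92, 5.69 and 3.62 in microvesicles. Every microvesicle array was lower than every cell array, replicate 5 most of all, and the mean change was -2.80 ± 0.37 (SE), 6.96-fold (limma adjusted p = 3.77e-05). IARS2, the isoleucine enzyme, had 10.29, 10.24, 10.23, 10.04 and 10.06 in cells and 9.04, 8.17, 8.46, 7.82 and 8.06 in microvesicles. The gap between its groups was about 1 log2 unit at the nearest arrays, and the change was -1.86 ± 0.21 (SE), 3.63-fold (limma adjusted p = 1.05e-05). NARS2, the asparagine enzyme, had 8.99, 8.82, 8.83, 8.71 and 8.64 in cells and 8.16, 7.16, 7.35, 6.66 and 7.59 in microvesicles. Its groups did not overlap, and it changed by -1.41 ± 0.23 (SE, limma adjusted p = 0.000217).

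LARS2, IARS2 and NARS2 were the mitochondrial genes that still fell after loess, at -1.96, -1.16 and -0.59. The other 8 that fell on the deposited values were EARS2 for glutamate (-1.22), MARS2 for methionine (-1.07), VARS2 for valine (-0.91), HARS2 for histidine (-0.83), SARS2 for serine (-0.72), YARS2 for tyrosine (-0.53), AARS2 for alanine (-0.51) and RARS2 for arginine (-0.49). After loess none of these 8 passed, and the sign turned in AARS2 (0.36), RARS2 (0.25) and YARS2 (0.32). The AARS2 call was narrow (limma adjusted p = 0.044) and was lost on leaving out any 1 of 8 arrays, all 5 of cells among them.

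CARS2, the mitochondrial cysteine enzyme, was the only synthetase gene that rose. It had 7.48, 7.40, 7.44, 7.66 and 7.81 in cells and 7.75, 8.15, 7.55, 8.23 and 8.34 in microvesicles. The groups overlapped, and the change was 0.45 ± 0.18 (SE, limma adjusted p = 0.0458). The call was lost on leaving out any 1 of 7 arrays (cells replicates 1 to 4 and microvesicles replicates 2, 4 and 5) and with arrays centred on their median (0.29), and it held after loess (1.29). The members that did not pass were WARS2 for tryptophan (-0.48), PARS2 for proline (-0.44) and FARS2 for phenylalanine (0.27, and 1.13 with a pass after loess).

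The median change was 0.33 higher in the cytosolic than in the mitochondrial genes, and this difference was not tested. It was 0.17 with all probe sets of a gene averaged, 0.21 without microvesicles replicate 2, and 0.21 to 0.44 over all arrays left out in turn. Against the mean of the cell arrays, the cytosolic median was -0.10, -0.44, -0.30, -0.75 and -0.27 in microvesicles replicates 1 to 5, and the mitochondrial median was -0.23, -1.26, -0.47, -1.20 and -0.64. The mitochondrial median was the lower on all 5 arrays, by 0.13 to 0.81. After loess the difference was 0.21, with medians of 0.20 and -0.01, and after quantile normalization it was 0.14. The probe sets of the mitochondrial genes were also dimmer, with a median signal in cells of 7.87 against 10.10, and signals from 6 to 9 were those at which genes at large had the lowest median changes (-0.81 to -0.98). Mitochondrial genes varied more between microvesicle arrays, with a median SD of 0.515 against 0.244 in cytosolic genes and 0.454 over all genes; among cell arrays the medians were 0.132, 0.215 and 0.147.

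For 14 amino acids both a cytosolic and a mitochondrial enzyme were measured, and in 9 of them the mitochondrial gene had the lower change (8 after loess). The leucine pair stood at -1.40 and -2.80, cytosolic first. The isoleucine pair stood at -0.52 and -1.86, the asparagine pair at -0.82 and -1.41, the serine pair at 0.08 and -0.72, and the tyrosine pair at 0.25 and -0.53. The alanine pair stood at -0.13 and -0.51, the histidine pair at -0.54 and -0.83, the tryptophan pair at 0.19 and -0.48, and the arginine pair was level at -0.48 and -0.49. The order was the opposite for valine, at -1.64 and -0.91, and for cysteine, at -0.12 and 0.45. It was also opposite for phenylalanine, where FARSA stood at -0.37 and FARS2 at 0.27. The order of some pairs rested on the choice of probe set. With all probe sets averaged it turned for valine (-0.35 and -0.91), tyrosine (-0.90 and -0.53) and arginine (-0.48 and 0.30). The gap nearly closed for serine (-0.71 and -0.72) and tryptophan (-0.04 and -0.10). It narrowed for leucine (-1.19 and -2.23) and widened for alanine (-0.13 and -0.71). With the probe set highest in cells the order turned for phenylalanine, where FARS2 stood at -1.84. EPRS1, at -1.30, was below both EARS2 at -1.22 and PARS2 at -0.44, which divide its amino acids between them in mitochondria. Differences within pairs were not tested.

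**Figure D2:**
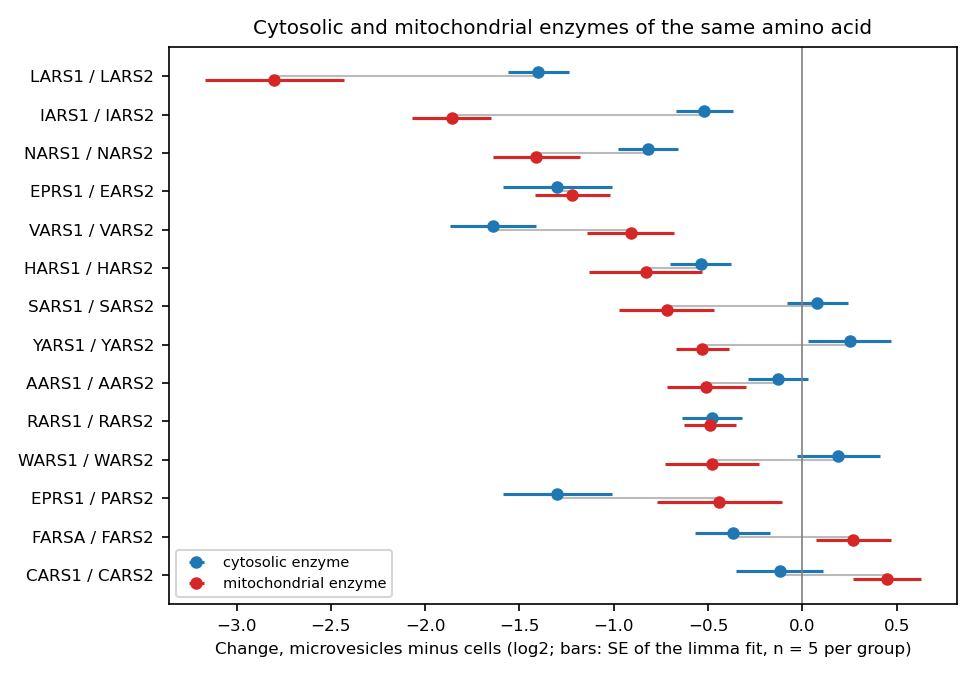
Change of the cytosolic (blue) and mitochondrial (red) enzyme of each of 14 amino acids (microvesicles minus cells, log2, deposited values, bars are the SE of the limma fit with 5 arrays per group). The mitochondrial point lies to the lower side in 9 pairs, with the widest gaps in leucine (-1.40 and -2.80) and isoleucine (-0.52 and -1.86).

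Of the enzymes shared by both compartments, KARS1 for lysine had 12.29, 12.34, 12.31, 12.22 and 12.24 in cells and 11.95, 11.82, 11.94, 11.66 and 11.91 in microvesicles. It was low on every microvesicle array by a small margin, and changed by -0.43 ± 0.14 (SE, limma adjusted p = 0.0151; -0.15 after loess and -0.19 with its probe sets averaged, neither passed). GARS1, the glycine enzyme, did not pass at 0.05, and rose by 0.58 after loess.

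AIMP1, a scaffold of the multisynthetase complex, had 9.40, 9.45, 9.55, 9.31 and 9.32 in cells and 8.78, 8.34, 8.84, 8.03 and 8.82 in microvesicles. The groups did not overlap, and it fell by 0.85 (limma adjusted p = 0.00145; -0.11 after loess, not passed). Its other 2 probe sets had changes of -2.16 and -2.39, and passed as lower under each scaling tried. PSTK, which phosphorylates the serine on the selenocysteine tRNA, had 7.09, 7.63, 7.41, 7.93 and 7.64 in cells and 6.52, 5.78, 6.30, 5.30 and 6.99 in microvesicles. It was lower on all microvesicle arrays, replicate 5 nearest to the cells, and changed by -1.36 ± 0.28 (SE, limma adjusted p = 0.00106; -0.51 after loess, not passed).

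The multisynthetase complex has 11 listed proteins, and the 6 measured alone were EPRS1, IARS1, LARS1, RARS1, KARS1 and AIMP1. All 6 fell on the deposited values, with a median of -0.68 and no overlap between the groups in any of them. Of all genes 31.2% fell and 26.1% lay lower without overlap, and of all probe sets with a mean signal above 8, where these genes lie, 57.2% fell. With probe sets averaged, KARS1 did not pass. After loess 2 of them, LARS1 and EPRS1, still fell and the median was -0.13. Among the probe sets shared with a microRNA gene, those of the complex enzymes MARS1 and QARS1 gave a mixed reading. The brighter 2 of the methionine enzyme MARS1 did not pass at -0.19 and -0.02, its dim 1 fell by 1.61 (limma adjusted p = 9.1e-05), and that of the glutamine enzyme QARS1 did not pass at -0.20. The shared probe set of TARS2, the mitochondrial threonine enzyme, fell by 1.02 (limma adjusted p = 0.000261). By the ancestry of the catalytic domain, 12 of 17 class I and 8 of 16 class II genes fell, with 1 and 0 higher. Of all genes 31.2% were lower and 35.5% higher. The fused enzyme EPRS1 is counted in both classes. After loess 5 and 2 fell, against 18.3%.

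The cell arrays were not alike in the cytosolic synthetases. In all 11 measured genes of a 12-gene list of ATF4-responsive synthetases, cells replicates 4 and 5 held the lowest 2 of the 5 cell values, a pattern that 16.0% of all genes had. CARS1 had 10.91, 10.69, 10.68, 9.77 and 10.12 in cells replicates 1 to 5 and 10.59, 10.30, 10.41, 9.91 and 10.36 in microvesicles. GARS1 had 10.91, 10.66, 10.69, 10.02 and 10.18 in cells and 10.71, 10.59, 10.65, 10.34 and 10.44 in microvesicles. SARS1 had 10.17, 10.05, 10.16, 9.64 and 9.73 in cells and 10.07, 10.03, 10.12, 9.85 and 10.05 in microvesicles. In these 3 genes, as in WARS1 and YARS1 above, the cell arrays covered a wider range than the microvesicle arrays did. The brighter MARS1 probe sets, which count in no list, also had their lowest cell values in replicates 4 and 5 (10.52, 10.15, 10.10, 9.54 and 9.69 in the less bright of them).

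Cytosolic synthetases outside that list did not have the pattern: 0 of 5 (FARSA, FARSB, HARS1, RARS1 and VARS1) had cells replicates 4 and 5 lowest. Of the mitochondrial genes 4 of 15 did (IARS2, NARS2, PARS2 and WARS2). KARS1 and AIMP1, outside the list and both of these classes, also had cells replicates 4 and 5 lowest, and PSTK did not. Over all 34 genes 17 had the pattern, against 16.0% of all genes. The median deviation of the 11 listed genes from their own cell mean was 0.23, 0.15, 0.19, -0.39 and -0.22 in cells replicates 1 to 5. The other cytosolic genes had 0.07, -0.03, -0.12, 0.04 and -0.06, and all genes stayed between -0.02 and 0.03. In microvesicles, replicates 4 and 5 were the lowest of their group in 4 of the 11 genes, against 11.3% of all genes.

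**Figure D3:**
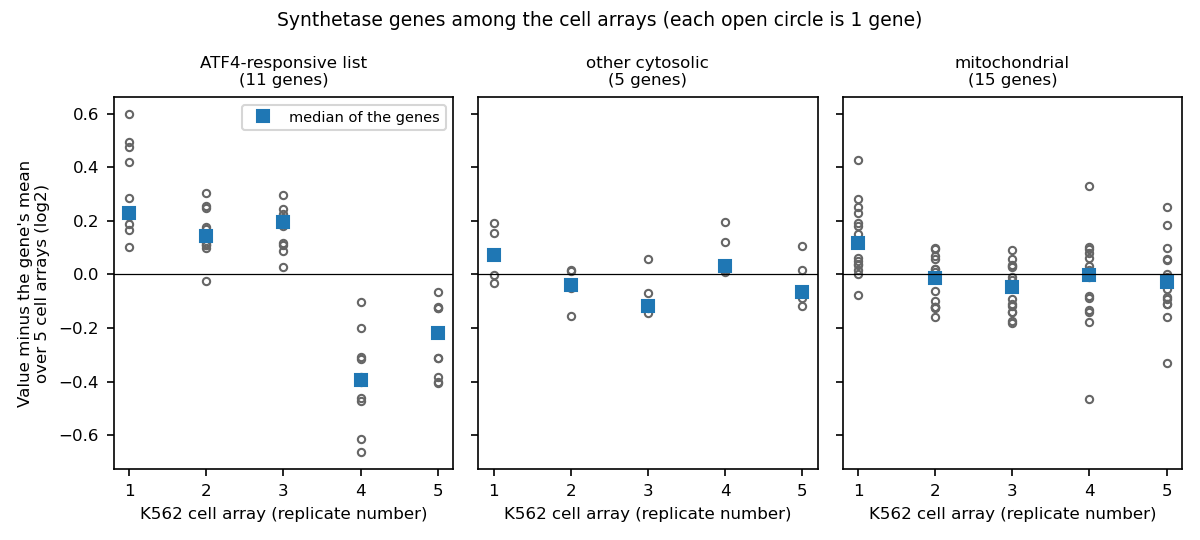
Value of each synthetase gene on the 5 K562 cell arrays minus its mean over them (log2), for the ATF4-responsive list, the other cytosolic genes and the mitochondrial genes; open circles are genes and squares their median. The medians of the ATF4-responsive list are -0.39 and -0.22 in replicates 4 and 5 and 0.15 to 0.23 in replicates 1 to 3.

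A list of 18 other amino acid response genes had the same order, with cells replicates 4 and 5 lowest in 16 of 18. Their median deviations were 0.58, 0.32, 0.33, -0.79 and -0.46. ASNS, asparagine synthetase, named after its values were seen, had 11.05, 10.66, 10.66, 8.79 and 9.45 in cells. DDIT3, the stress-induced factor CHOP, had 9.05, 8.77, 9.10, 7.21 and 7.70 in cells. The difference between the 3' and 5' control probe sets of ACTB, a measure of RNA integrity and of labelling, was 2.26, 2.30, 2.30, 2.57 and 2.54 on the same arrays, so it was highest in replicates 4 and 5. Its part in the pattern was not tested.

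Promoter sequences are shown for the genes of the list in which the ATF4-type element was found, since the list was drawn up by that regulation. RefSeq windows of GRCh38.p14, 250 bases before to 50 after each gene start, were matched for 29 of the 34 genes and searched on both strands for TTGCATCA. The element was in 5 of 29, all of them cytosolic enzymes of the ATF4-responsive list (5 of 9 with a window), in 0 of 4 other cytosolic and 0 of 13 mitochondrial genes. It was in 1.08% of all 27305 genes with a window, and in 0.866% of all 35116 windows. Capitals mark the element, and each sequence is written 5′ to 3′ on the gene's strand. It begins 187 bases before the start of AARS1 (chr16:70289674-70289733, minus strand), 2 before that of CARS1 (chr11:3057418-3057465, minus) and 13 before that of IARS1 (chr9:92293698-92293750, minus). It lies 14 bases after the start of NARS1 (chr18:57621815-57621862, minus), where it reads as its reverse complement TGATGCAA, and 2 after that of TARS1 (chr5:33440927-33440974, plus).
AARS1: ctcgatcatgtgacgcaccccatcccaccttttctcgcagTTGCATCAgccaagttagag
CARS1: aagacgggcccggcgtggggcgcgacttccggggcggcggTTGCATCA
IARS1: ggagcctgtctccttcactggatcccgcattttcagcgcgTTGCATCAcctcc
NARS1: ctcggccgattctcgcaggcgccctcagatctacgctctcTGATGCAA
TARS1: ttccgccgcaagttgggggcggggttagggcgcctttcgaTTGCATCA

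The looser motif TGATGNAA contains TGATGCAA and so counts every match above again. It was in 7 of the 29 genes, GARS1 and YARS2 being the additional ones. Among all genes with a window 4.46% had it, and among all windows 3.62%. A match says only that these letters stand in the window. The windows of HARS1 and HARS2, neighbours that start back to back, overlapped by 184 bases and held neither motif.

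Without cells replicates 4 and 5, an alternative chosen after seeing the data, 15 of 34 synthetase genes fell and 0 rose (all genes: 26.8% fell, 25.2% rose). The calls of KARS1, HARS1, RARS1, AARS2, CARS2, HARS2 and SARS2 were lost. Their changes, in that order, were -0.46, -0.44, -0.47, -0.45, 0.56, -0.87 and -0.73. On all arrays they were -0.43, -0.54, -0.48, -0.51, 0.45, -0.83 and -0.72. With fewer cell arrays 10291 of all genes passed in either direction, against 13179 with all arrays. The median of the ATF4-responsive list moved from -0.13 to -0.44, with 4 of 11 lower either way, that of all cytosolic genes from -0.39 to -0.44 and that of mitochondrial genes from -0.72 to -0.73. In the complex 4 of 6 fell.

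Of the 34 genes, 20 had more than 1 probe set, and in 5 of them (CARS1, VARS1, EARS2, FARS2 and RARS2) probe sets passed in both directions. The share of all genes with such a split is not given here, so it is not read as a trait of the synthetases. Among all probe sets 27.0% fell and 35.4% rose, the dim ones mostly rising. The dimmer VARS1 probe set had 5.75, 5.55, 5.57, 5.40 and 5.69 in cells and 6.46, 6.91, 6.14, 6.63 and 6.54 in microvesicles. It rose by 0.95 (limma adjusted p = 0.000473) under each scaling tried, and so ran against the brighter one, which fell under each of them. FARS2 had a probe set with 8.30, 8.30, 8.26, 8.17 and 8.04 in cells and 7.79, 6.34, 7.01, 5.21 and 5.53 in microvesicles. That one fell by 1.84 (limma adjusted p = 0.00125; -0.98 after loess, passed, and not passed after quantile normalization). The probe set that stood for FARS2 had 7.39, 7.35, 7.33, 7.40 and 7.23 in cells and 8.22, 7.86, 7.08, 7.46 and 7.42 in microvesicles, with overlap. A dim FARS2 probe set rose by 1.27 (limma adjusted p = 0.00927; not passed after loess).

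In the remaining 3 genes the probe sets that rose were dim. A CARS1 probe set at a mean of 3.44 in cells rose by 0.65 and another at 6.10 fell by 1.46, while the brightest, at 10.43, did not pass. In EARS2 the probe set at 4.22 in cells rose by 0.63 and those at 5.93 and 7.07 had changes of -0.89 and -1.22. In RARS2 those at 1.93 and 2.38 had changes of 0.88 and 1.30 and the brightest, at 9.24, one of -0.49. After loess the rises of CARS1 and RARS2 and the falls of EARS2 and RARS2 did not pass. Further probe sets also showed a fall in genes whose brightest did not pass. They stood at -2.06 in YARS1, -1.50 in SARS1, -1.78 in FARSB and, as given above, -1.46 in CARS1, each past the threshold under each scaling tried, and at -1.03 in FARSA and -1.84 in FARS2, which did not pass under every scaling. In EPRS1 all 3 probe sets fell, with changes of -0.86, -1.30 and -2.60 (the first of these not after loess), and in LARS2 both did, with -1.66 and -2.80.

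**Figure D4:**
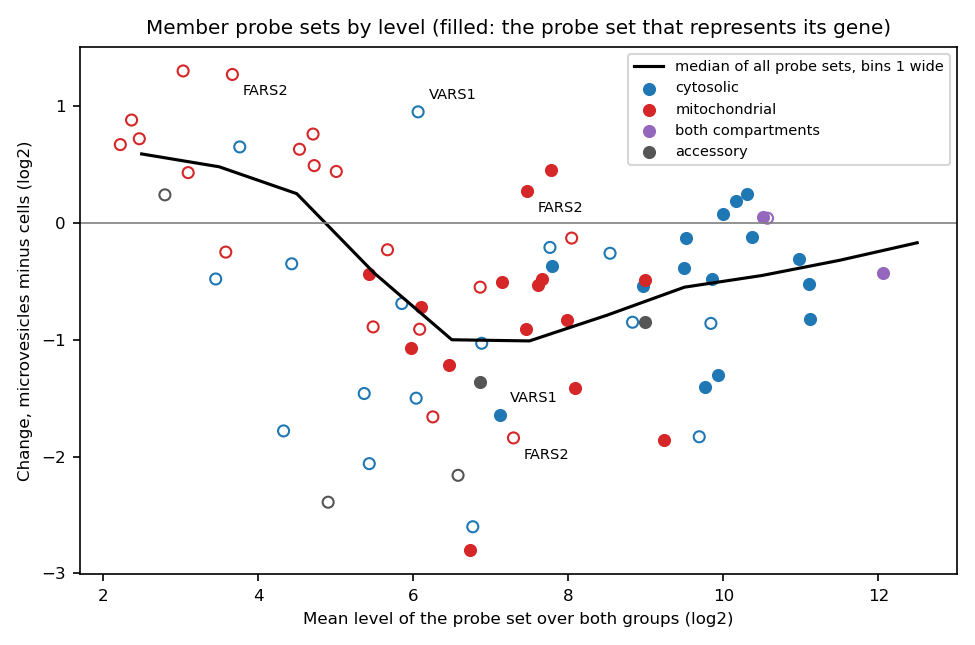
Change (microvesicles minus cells, log2) of each of the 72 synthetase probe sets against its mean signal over both groups; filled points stand for their gene, open points are further probe sets, and the line is the median of all probe sets in bins 1 log2 unit wide. Above a signal of 8 the points that passed all lie below 0, at 5 or below 8 of 16 rose, and VARS1 and FARS2 have probe sets on opposite sides of 0.

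Genes that act with the synthetases were counted from lists on the same fit, in which 31.2% of all genes fell and 35.5% rose (after loess 18.3% and 26.9%). Of charging partners, which edit misloaded tRNA or make selenocysteine, 6 of 8 measured fell and 0 rose (median -0.81; after loess 2 fell and 2 rose). DTD2, a proofreading deacylase, fell by 1.63 (limma adjusted p = 8.8e-05), and SEPSECS, the next enzyme after PSTK, fell by 1.48 (limma adjusted p = 0.000845). Of 37 genes of tRNA maturation and export, 28 fell and 2 rose (median -0.88; after loess 10 and 6). The pseudouridine synthase PUS7 changed by -2.14 and the queuine transferase subunit QTRT2 by -2.27. The methyltransferase subunit TRMT61A rose by 0.48 and the deaminase subunit ADAT3 by 0.40, neither of them past the threshold with arrays centred.

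Of 7 factors that deliver charged tRNA to the ribosome, 3 fell and 2 rose (after loess 0 and 3). The elongation factor EEF1A2 rose by 1.24 and the selenocysteine elongation factor EEFSEC by 0.40, the latter not with arrays centred. SECISBP2, which binds selenoprotein mRNAs, fell by 1.08, and the mitochondrial elongation factor TSFM fell by 0.89, neither past the threshold after loess. Of the 18 amino acid response genes 4 fell and 3 rose (median 0.04), and without cells replicates 4 and 5 the counts were 9 and 1. In the latter fit 26.8% of all genes fell and 25.2% rose. With all arrays DDIT3 was higher by 1.26 and ATF5, another factor of this response, by 1.01. Both had their lowest cell values in replicates 4 and 5. The groups overlapped in DDIT3 (7.21 to 9.10 in cells, 8.72 to 10.27 in microvesicles) and not in ATF5 (7.36 to 8.86 and 9.06 to 9.35). Without those replicates at most 1 of these rises passed, and whether either did is not given here. The amino acid transporters SLC7A11 and SLC7A5 changed by -2.50 and -1.42, the second not past the threshold after loess.

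Erythroid markers of K562, 9 of 10 of them measured, had cell means from 5.92 in EPOR to 12.28 in TFRC. HBE1 stood at 11.72, HBZ at 9.85, GATA1 at 7.06 and ALAS2 at 6.66. From this list 4 fell and 1 rose (median -0.61), where 31.2% of all genes fell and 35.5% rose. After loess 1 fell and 2 rose, against 18.3% and 26.9% of all genes. Of 10 markers of other blood and stromal cells 8 were measured, with single values of 2.70 to 6.62 in cells and 2.84 to 7.31 in microvesicles. All 8 rose, and 4 of 8 after loess. Their median change was 0.64, and all genes with a mean signal of 4 or below had a median change of 0.62. Not all 8 were dim. COL1A1 rose by 0.49 (1.33 after loess), and all genes with a mean signal from 6 to 7 had a median of -0.84. CD79A rose by 0.56 (0.86 after loess), and those from 5 to 6 had a median of -0.07. Of all probe sets 47.0% rose at a mean signal of 5 or below and 15.9% between 5 and 8. The part of these markers in the synthetase values was not tested. The median signal of an array was 4.10 ± 0.015 (SD, n = 5) for cells and 4.26 ± 0.022 (SD, n = 5) for microvesicles. The ACTB 3' to 5' difference was 2.39 ± 0.15 (SD, n = 5) for cells against 3.12 ± 0.34 (SD, n = 5) for microvesicles (exact 2-sided permutation p = 0.00794, the smallest this design allows), so RNA integrity or labelling moved with the groups, and its part was not tested. Over genes, which are not independent, correlations between arrays were 0.992 to 0.998 among cells and 0.925 to 0.955 among microvesicles.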

How the data were processed

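The authors deposited log2 expression values per probe set for 10 arrays. Per the submitters' processing notes they come from RMA, whose version is not given in the sources used here. This method equalises probe intensities between arrays, so a different total amount of RNA is not visible, and the values carry no detection call. Gene symbols came from the platform annotation, updated through the RefSeq gene table. Each gene was read from its probe set with the highest mean over 10 arrays, and those that name no gene or more than 1 gene did not enter the gene fit. Signals of different probe sets are not amounts of RNA on 1 scale. Microvesicles were compared with cells by limma 3.58.1 in R 4.3.3 (lmFit and eBayes, 1 mean per group, 2-sided, Benjamini-Hochberg over all 19775 genes or 54630 probe sets, threshold 0.05). The number of arrays limits the precision.

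The members and all lists were chosen with earlier results of these data known. Values on every array were given for the 3 largest rises and falls past the threshold within each class, for genes with probe sets past it in both directions (where bright) and for AIMP1 and PSTK; those of WARS1, YARS1, GARS1, SARS1 and ASNS were added for the pattern among the cell arrays after it was seen. From each partner list up to 2 rises and 2 falls were named. On simulated data with 19775 genes the fit recovered 2 of 50 genes changed by 0.5 and 26 of 50 changed by 1 on the log2 scale. It recovered 50 of 50 changed by 2 and 50 of 50 by 3, with 4 false calls. Only these genes were changed, all upward, while 13179 genes passed in the data. The adjusted threshold was therefore stricter in the simulation, and these shares do not give the power of the fit on the data. Alternatives were array centring, quantile and loess normalization, the replicate number as a block, filters on dim genes, other choices of probe set, array weights, a robust fit with a variance trend, an exact rank sum test and leaving out each array. Promoter windows came from RefSeq (GRCh38.p14).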

Additional observations from a re-analysis of the deposited data

Results flagged for a closer look

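In 3 of 68 groups of 5 arrays (34 genes, cells and microvesicles apart) 1 array stood away from the rest by Dixon's criterion for 5 values (a gap above 0.71 of the range). Chance gives about 1 in 20. All 3 were low values in microvesicles. WARS1 was 10.01 in replicate 5, with 10.30 to 10.34 on the others. YARS2 was 7.10 in replicate 5, with 7.39 to 7.41 on the others. PARS2 was 3.73 in replicate 2, with 5.34 to 5.88 on the others.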

How the results depend on the processing

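With loess normalization 14 synthetase genes passed, 8 higher and 6 lower (cytosolic 5 and 3, mitochondrial 2 and 3), with medians of 0.20 for cytosolic and -0.01 for mitochondrial genes. With quantile normalization 14 passed, 7 higher and 7 lower (cytosolic 4 and 4, mitochondrial 3 and 3), with medians of 0.12 and -0.02, 27 synthetase probe sets and 8500 of all genes. Among genes that passed on the deposited values, under the alternative or both, the sign turned under loess in AARS1 (0.54), FARSA (0.48), HARS1 (0.20), RARS1 (0.14), AARS2 (0.36), RARS2 (0.25) and YARS2 (0.32). Under quantile normalization it turned in FARSA (0.51), HARS1 (0.12), RARS1 (0.02), AARS2 (0.39), HARS2 (0.01), RARS2 (0.17) and YARS2 (0.39). With all probe sets of a gene averaged it turned in SARS1 (-0.71), YARS1 (-0.90) and RARS2 (0.30), and with the probe set highest in cells in FARS2 (-1.84). Among genes that passed in neither, it also turned in CARS1, FARSB, TARS1 and WARS2 under loess, in these and AARS1 under quantile normalization, in WARS1 and FARS2 with probe sets averaged, and in GARS1 and SARS1 with centred arrays. With probe sets averaged 10 cytosolic and 10 mitochondrial genes fell, and the calls of VARS1 (-0.35) and KARS1 (-0.19) were lost. In that fit 13960 of all genes passed in either direction. The call of CARS2 was lost, leaving 0 genes higher and 0 mitochondrial genes higher, with array weights, with centred arrays, with the exact rank sum test and without both cells replicates 4 and 5. Array weights also lost the fall of AARS2, and the rank sum test those of AARS2 and SARS2 (9 mitochondrial genes lower). Of all genes 13354 passed with array weights and 11205 with the rank sum test, in either direction. A higher group mean of at least 5 left 8289 genes past the threshold, of 13179, because fewer genes were tested. Beyond those constructions, the cause was not tested.

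Leaving out each array in turn gave 18 to 25 genes past the threshold, 0 to 1 higher and 18 to 24 lower, 7 to 9 cytosolic and 8 to 12 mitochondrial genes lower, and 0 to 1 mitochondrial genes higher. In the same fits 11664 to 13411 of all 19775 genes passed in either direction. Leaving out arrays gave cytosolic medians of -0.52 to -0.29 and mitochondrial medians of -0.88 to -0.55. The calls that moved were those of AARS2, CARS2, HARS2 and SARS2, which were lost, and of FARSA, FARSB and WARS2, which were gained without microvesicles replicate 1. With the replicate number as a block 21 of the synthetase genes passed, AARS2 being lost, and 12974 of all genes passed. The numbers were not taken to pair the samples: deviations of same-numbered arrays correlated at -0.028 to 0.123, and 4 of 5 cell arrays correlated best with the microvesicle array of their own number, a hint from the data only. Filters on dim genes changed no call among the 34 genes.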
